A study of Mus musculus with 23 samples.

Results

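The 10 genes described here encode microtubule and growth cone proteins of young neurons: Dcx, Dclk1, Tubb3, Tubb2b, Map2, Mapt, Map1b, Stmn2, Stmn3 and Gap43. They were chosen by name, and every probe set that the array annotation assigns to 1 of these symbols alone was taken, which gave 31 probe sets, out of 18192 genes with such a probe set on the array. All 10 genes had a tested probe set, and 30 of the 31 probe sets passed the filter on low signal. Each gene was followed by its main probe set, the one with the highest mean log2 signal over all arrays. Medulloblastomas, cerebellar tumours of Ptch+/-HIC+/- mice, were dissociated, and the cells were grown as subcutaneous allografts in the flank of nude mice, which lack T cells. All groups shared this tumour genotype and host. Tumours received NVP-LDE225, an antagonist of the Hedgehog pathway protein Smoothened, at 40 mg/kg for 4, 8, 24 or 48 h (3 arrays each), or were labelled resistant at 40 or 160 mg/kg (3 arrays each). Controls were 2 arrays of a 4 h vehicle group and 3 arrays of vehicle with no stated time, called vehicle below. The labels do not say how resistance arose, how many doses were given or whether the arrays of a group came from separate mice, and the p-values below therefore reflect differences between arrays, which may be technical in part. For 6 of the 12 short-term arrays a source label reads resistant, while description and tumour status do not, and the description was followed.

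Axons and dendrites are built on bundled microtubules, and the growth cone at an axon's tip steers by adding and removing them. Cerebellar granule neurons arise from progenitors that divide under Hedgehog signalling. When such a progenitor leaves the cell cycle it turns on microtubule-binding proteins and neuronal tubulins, sends out processes and migrates. Doublecortin (Dcx) and its relative Dclk1 bundle microtubules, Tubb3 and Tubb2b are neuronal beta-tubulins, Map2, Mapt (tau) and Map1b line microtubules, Stmn2 and Stmn3 are stathmins, which bind free tubulin, and Gap43 is a membrane protein of the growth cone.

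RefSeq start windows (build GRCm38.p6, 250 bases before to 50 after the start) were matched for 6 of the 10 genes, in 8 windows. The windows below are shown because Dcx, Tubb3 and Stmn3 moved together, because Stmn3 and Map1b held the motif searched, and because Dclk1, whose probe sets disagreed, has 2 windows. Both strands were searched for CAGCTG and CAGATG, E-box forms bound by neuronal helix-loop-helix factors such as NeuroD1 and Atoh1, and capitals mark a match.
Dcx (chrX:143933170-143933469, minus strand): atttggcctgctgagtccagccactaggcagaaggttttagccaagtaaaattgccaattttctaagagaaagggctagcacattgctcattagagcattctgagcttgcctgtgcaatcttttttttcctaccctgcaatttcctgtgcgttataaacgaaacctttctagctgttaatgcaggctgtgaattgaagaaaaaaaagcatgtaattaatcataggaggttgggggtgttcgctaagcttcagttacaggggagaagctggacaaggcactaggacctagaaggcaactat
Tubb3 (chr8:123411303-123411602, plus strand): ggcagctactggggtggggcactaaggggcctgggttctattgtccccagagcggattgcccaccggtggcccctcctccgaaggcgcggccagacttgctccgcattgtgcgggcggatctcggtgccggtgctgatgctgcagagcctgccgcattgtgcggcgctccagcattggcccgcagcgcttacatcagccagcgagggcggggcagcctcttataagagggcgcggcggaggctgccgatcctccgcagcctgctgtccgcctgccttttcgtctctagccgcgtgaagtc
Stmn3 (chr2:181314451-181314750, minus strand): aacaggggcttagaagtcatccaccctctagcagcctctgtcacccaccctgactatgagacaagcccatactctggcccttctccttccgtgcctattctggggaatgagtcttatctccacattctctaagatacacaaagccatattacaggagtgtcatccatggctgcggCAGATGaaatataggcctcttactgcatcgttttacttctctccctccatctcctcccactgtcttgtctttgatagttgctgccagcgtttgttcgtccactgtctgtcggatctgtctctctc
Map1b (chr13:99516553-99516852, minus strand): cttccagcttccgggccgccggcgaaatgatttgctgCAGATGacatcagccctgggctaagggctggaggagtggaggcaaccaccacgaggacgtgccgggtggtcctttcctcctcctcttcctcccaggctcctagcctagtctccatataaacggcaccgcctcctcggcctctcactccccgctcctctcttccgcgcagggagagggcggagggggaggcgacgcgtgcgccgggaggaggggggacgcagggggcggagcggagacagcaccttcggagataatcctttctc
Dclk1, upstream start (chr3:55242114-55242413, plus strand): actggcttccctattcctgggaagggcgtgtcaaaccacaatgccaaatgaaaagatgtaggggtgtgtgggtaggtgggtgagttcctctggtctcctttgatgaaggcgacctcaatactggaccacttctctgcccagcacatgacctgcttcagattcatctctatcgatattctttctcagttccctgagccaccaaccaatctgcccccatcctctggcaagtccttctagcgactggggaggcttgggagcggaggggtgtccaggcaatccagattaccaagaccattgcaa
Dclk1, downstream start (chr3:55461478-55461777, plus strand): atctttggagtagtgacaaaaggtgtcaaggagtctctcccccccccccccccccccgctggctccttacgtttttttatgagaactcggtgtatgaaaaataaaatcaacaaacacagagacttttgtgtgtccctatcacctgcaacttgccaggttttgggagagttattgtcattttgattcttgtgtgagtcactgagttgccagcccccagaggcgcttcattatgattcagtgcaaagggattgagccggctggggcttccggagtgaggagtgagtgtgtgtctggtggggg
CAGATG occurred once in the Stmn3 window, with its first base at -75 from the start, and once in the Map1b window, at -213. Thus 2 of the 8 windows held either form, beside 30.6% of all 32851 windows of this length. By whole gene, Stmn2 lies at chr3:8509527-8561604, Gap43 at chr16:42248552-42340651, Mapt at chr11:104229409-104332090, Tubb2b at chr13:34127008-34130354 and Map2 at chr1:66175202-66442583. The windows differed in base composition, with 43.0% G or C for Dcx, 49.7% for Stmn3 and 67.3% for Tubb3.

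Signal was the authors' MAS5 intensity, scaled to a 2% trimmed mean of 150 on every array; array medians ranged between 33.9 and 46.7. Differences were tested with limma on log2(signal + 16), and a gene is called where its two-sided p, adjusted by Benjamini-Hochberg over the 35069 tested probe sets, was below 0.05. The offset of 16 understates the fold change of dim genes. Differences are given ± SE. The drug's target pathway responded in the labelled direction: Gli1, a Hedgehog target, had a mean signal of 12.3 ± 7.37 at 48 h, against 679 ± 42.2 in vehicle tumours (SD, n = 3 each). In resistant tumours Gli1 stood at 1165 ± 172 at 40 mg/kg and at 633 ± 60.9 at 160 mg/kg. An actin ratio, the log2 of signal at the 3' end over that at the 5' end, rises with RNA breakdown and was 1.65 ± 0.218 at 24 h and 0.92 ± 0.0667 at 48 h, against 1.04 ± 0.0404 in vehicle tumours (SD, n = 3 each).

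At 48 h nearly all of the young-neuron genes rose. Of the 10 genes, 9 were called higher and 0 lower than in vehicle tumours, beside 25.2% of all 14945 genes called higher. The median log2 difference of the 10 genes was 2.11, beside 0.056 over all genes. Counted by probe set, 23 of 30 were called higher. Probe sets of 1 gene are not separate results, and the share over all probe sets was not counted. By size of rise Stmn2 ranked 3 of all 14945 genes, Dcx 6 and Gap43 23. These ranks depend on the offset where vehicle signals were dim, as for Stmn2. With an offset of 1 they were 3, 14 and 71, and with 64 they were 7, 9 and 18. Ranks against the 4 h vehicle arrays, where Dcx was brighter, were not taken. Dclk1 alone was not called on its main probe set.

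At 24 h 7 genes were called higher, beside 19.7% of all genes, and 1, Dclk1, lower, beside 14.4%. The median of the 10 genes was 1.69, beside 0.105 over all genes, the only comparison in which the median of all genes moved by more than 0.1. By size of rise Dcx ranked 5 and Gap43 56, or 13 and 125 with an offset of 1 and 6 and 39 with 64. Mapt and Map1b were not yet called at this time. The 24 h, 48 h and resistant comparisons share the same 3 vehicle arrays. In bulk tumour RNA, more neuronal cells and more RNA per cell cannot be told apart.

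**Figure D1:**
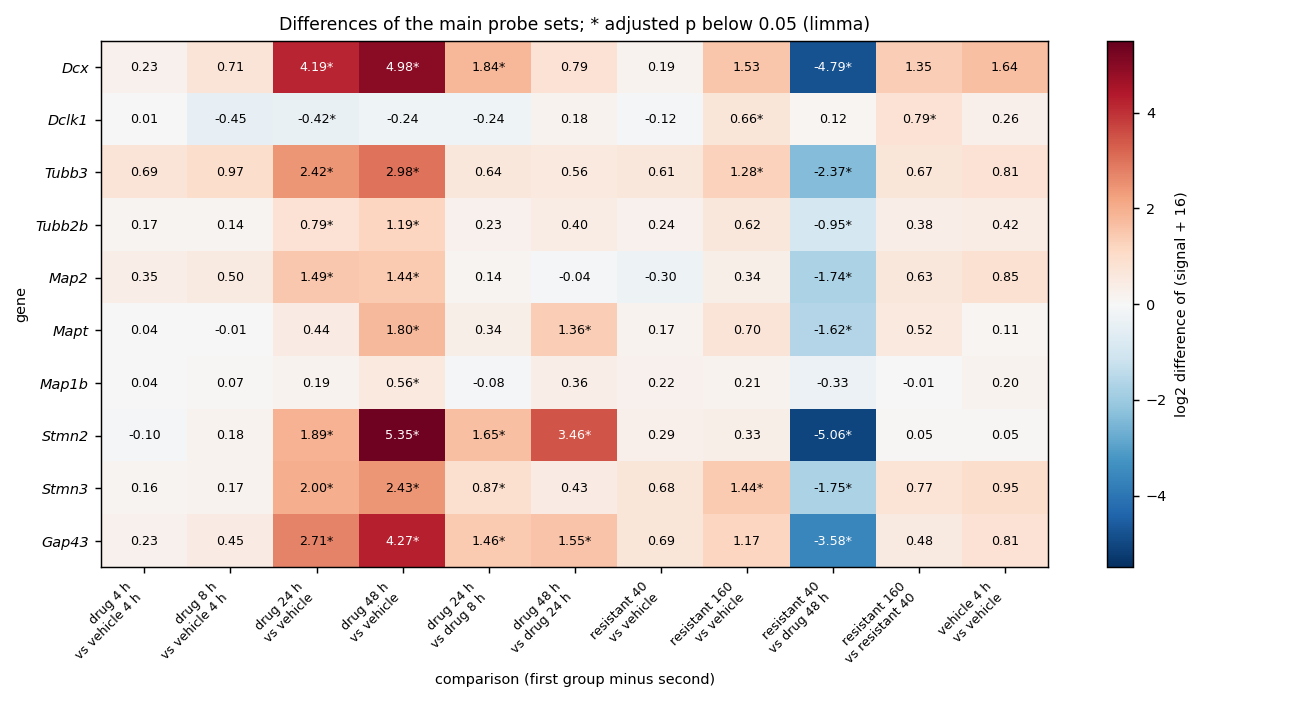
Log2 difference of (signal + 16) for the main probe set of each gene (rows) in the 11 comparisons (columns, first-named group minus the other); asterisks mark an adjusted p below 0.05. The red block at 24 h and 48 h holds Dcx, Tubb3, Stmn2, Stmn3 and Gap43, and the blue column is resistant tumours at 40 mg/kg against 48 h of drug, while Dclk1 lies between -0.45 and 0.79 in every column.

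Dcx, which bundles and stabilises microtubules in migrating neurons, separated the groups most widely by 24 h. Its signal was 910.5, 976 and 884 at 24 h and 1625, 1597 and 1606 at 48 h, against 38.5, 44.1 and 25.6 in vehicle tumours. No array of either drug group came near the vehicle arrays, and the 3 arrays at 48 h were close to one another. The log2 difference was 4.19 ± 0.48 at 24 h (adjusted p = 3.13e-07) and 4.98 ± 0.48 at 48 h (adjusted p = 1.01e-08), or 31.6-fold at 48 h on the signal + 16 scale. In 4 h vehicle tumours Dcx had 136 and 154, so the size of this rise depends on the vehicle group. All 4 Dcx probe sets were called higher at 48 h. The second brightest, 1418139_at, averaged 1486 at 48 h, against 32.8 in vehicle tumours.

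Dclk1, a kinase with the same microtubule-binding domains, did not follow Dcx on its main probe set, 1436659_at. It had 391, 418 and 433 at 24 h and 424, 532 and 458 at 48 h, against 549, 529 and 599 in vehicle tumours. The 24 h arrays all lay below the vehicle arrays, and the 48 h arrays overlapped them. The difference was -0.42 ± 0.16 at 24 h (adjusted p = 0.0499), a call lost in 12 alternative settings. At 48 h it was -0.24 ± 0.16 (adjusted p = 0.252), with a 95% interval of -0.57 to 0.08. Set against the 4 h vehicle arrays it was called lower at 48 h (-0.50, adjusted p = 0.0297).

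The 8 tested Dclk1 probe sets split at 48 h. Probe set 1435940_at had 139, 113 and 100.3 at 48 h, against 44.8, 14.6 and 48.0 in vehicle tumours, and rose by 1.43 ± 0.38 (adjusted p = 0.0037). Probe set 1450863_a_at had 79.1, 77.2 and 79.4 at 48 h, against 21.1, 17.2 and 25.3 in vehicle tumours, and rose by 1.35 ± 0.26 (adjusted p = 1.57e-04). In both, all drug arrays lay above all vehicle arrays. Neither was called at 24 h. The other bright probe set, 1424271_at, stayed with the main one: it had 389.8, 442 and 309 at 48 h, against 492, 396 and 501 in vehicle tumours (adjusted p = 0.157). At 8 h the same probe set was called lower than in 4 h vehicle tumours (-0.74 ± 0.17, adjusted p = 0.0128). It had 385, 385 and 412 at 8 h, against 648 and 687. The 8 h arrays overlapped the vehicle arrays with no stated time (between 396 and 501), so this fall depends on the vehicle group. Probe set 1424271_at was the only one of the 30 called at 8 h. Which transcripts each probe set reads is not given in the files used here.

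**Figure D2:**
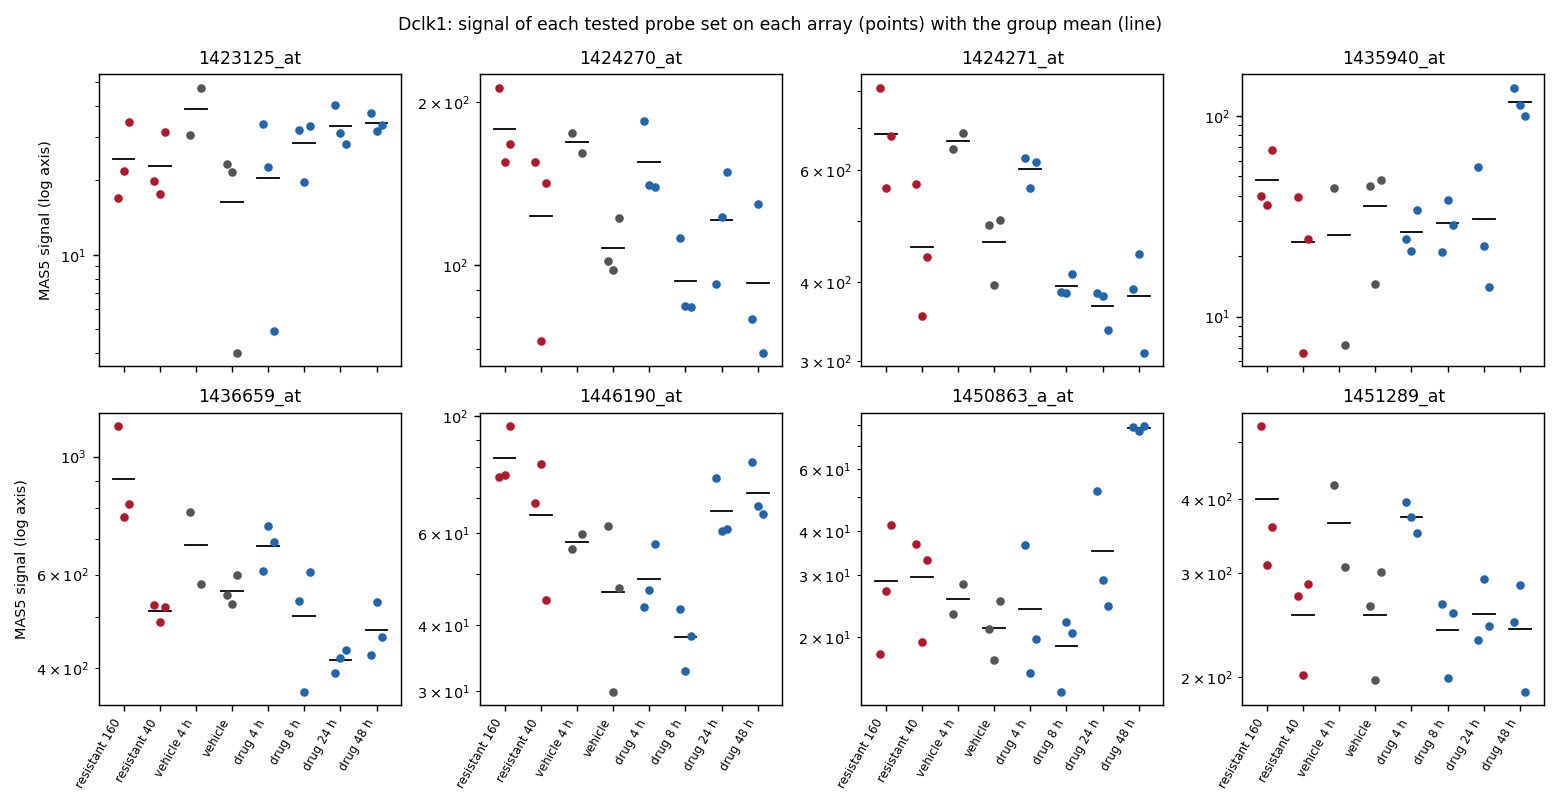
MAS5 signal (log axis) of the 8 tested Dclk1 probe sets on each of the 23 arrays (points), with group means (lines), for resistant, vehicle and drug groups. Probe sets 1435940_at and 1450863_a_at have their highest signals at 48 h of drug, whereas 1424271_at and 1436659_at are lower at 24 h and 48 h than at 4 h.

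Tubb3, the beta-tubulin that marks postmitotic neurons, had 573, 662 and 609.6 at 24 h and 927, 995 and 816 at 48 h, against 109.6, 105 and 90.9 in vehicle tumours. The groups did not overlap. It rose by 2.42 ± 0.27 at 24 h (adjusted p = 2.35e-07) and by 2.98 ± 0.27 at 48 h (adjusted p = 4.42e-09). Tubb2b, a beta-tubulin needed for neuronal migration, was bright before treatment and rose less. It had 1862, 2308 and 2422 at 24 h and 2812, 3642 and 2351 at 48 h, against 1352, 1190.5 and 1231 in vehicle tumours. Every drug array lay above every vehicle array. Its rise was 0.79 ± 0.23 at 24 h (adjusted p = 0.00967) and 1.19 ± 0.23 at 48 h (adjusted p = 1.41e-04). In 4 h vehicle tumours Tubb2b had 1979 and 1431, which overlapped the 24 h arrays and lay below the 48 h arrays. Beta-tubulin genes are alike in sequence, so probes may share targets among them; 1 further probe set that carries Tubb2b beside another symbol was not used.

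**Figure D3:**
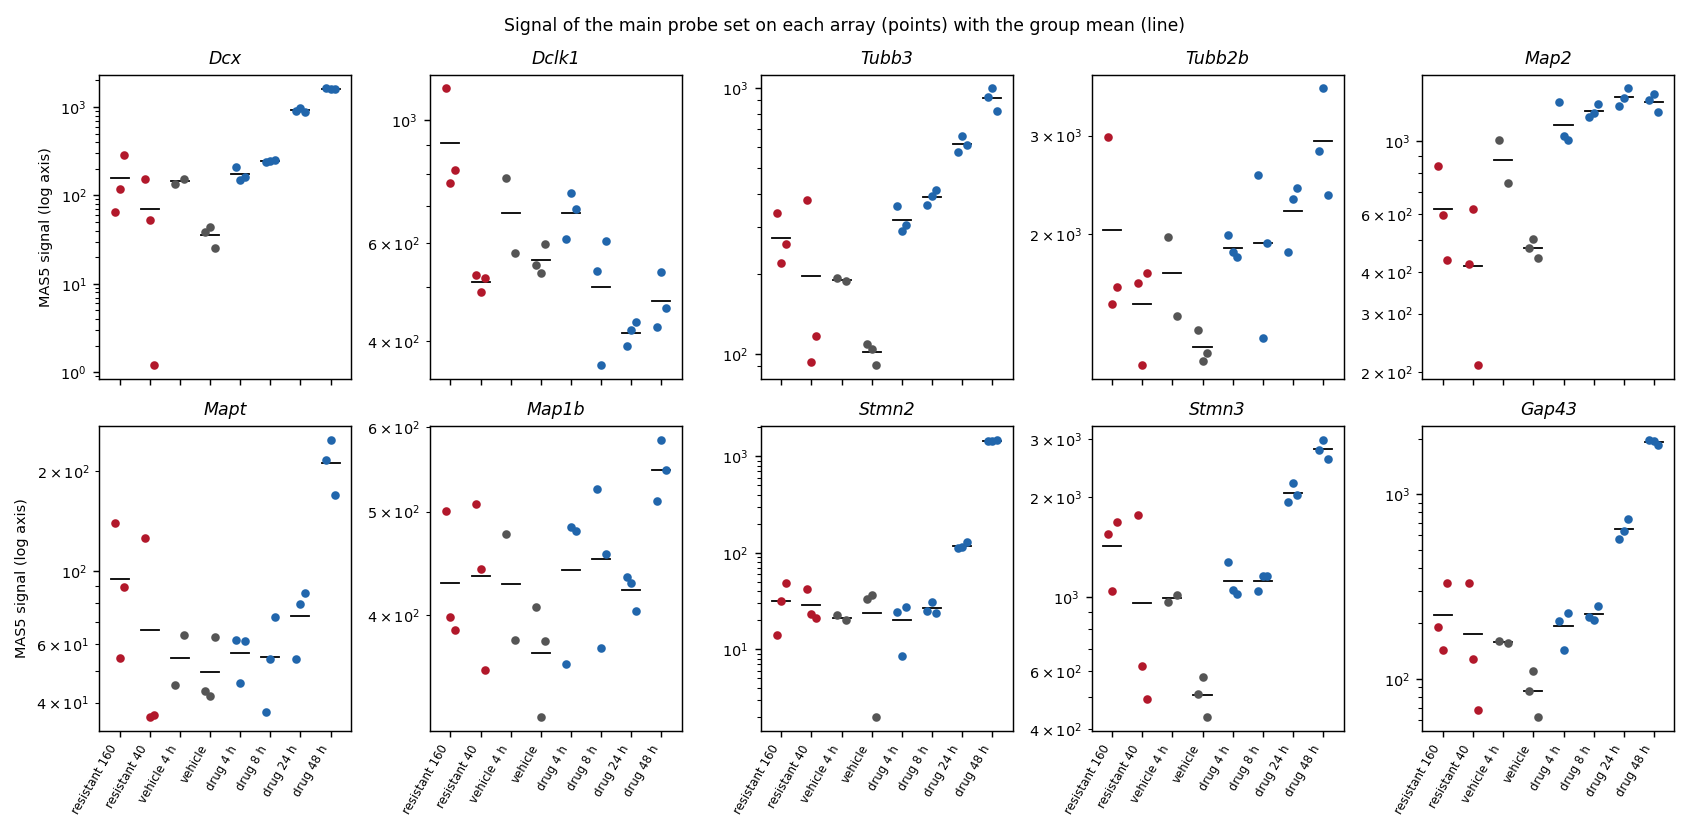
MAS5 signal (log axis) of the main probe set of each of the 10 genes on each of the 23 arrays (points), with group means (lines). The 48 h arrays stand above all other groups for Dcx, Tubb3, Mapt, Stmn2, Stmn3 and Gap43, Map2 is similar at 8, 24 and 48 h, and Dclk1 has its highest mean in resistant tumours at 160 mg/kg.

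Among the structural microtubule-associated proteins, Map2, the main one of dendrites, reached its level early on its main probe set. It had 1276, 1353 and 1444 at 24 h and 1330.5, 1392 and 1225 at 48 h, against 474, 505 and 443 in vehicle tumours. The rise was 1.49 ± 0.24 at 24 h (adjusted p = 3.57e-05) and 1.44 ± 0.24 at 48 h (adjusted p = 2.78e-05). Set against the 4 h vehicle arrays instead, neither was called (adjusted p = 0.0925 at 24 h and 0.0937 at 48 h). Mapt, which encodes the axonal protein tau, moved late. It had 54.0, 79.5 and 85.5 at 24 h and 217, 248 and 169 at 48 h, against 43.5, 41.8 and 63.0 in vehicle tumours. The 24 h arrays overlapped the vehicle arrays (0.44 ± 0.32, adjusted p = 0.331), and the 48 h arrays lay above them (1.80 ± 0.32, adjusted p = 6.41e-05). All 4 Mapt and all 4 Map2 probe sets were called higher at 48 h. The other Map2 probe sets differed in timing. Their means at 24 h and 48 h were 93.1 and 198 for 1421328_at, 54.1 and 96.0 for 1421327_at, and 283 and 327 for 1440699_at. For 1421328_at and 1421327_at the 24 h and 48 h arrays did not overlap. The largest rise among the other Mapt probe sets was that of 1424718_at, which averaged 235.5 at 48 h, against 29.5 in vehicle tumours.

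Map1b, abundant in growing axons, changed least among the genes called at 48 h. It had 434, 428 and 404 at 24 h and 511, 584 and 547 at 48 h, against 407, 321 and 378 in vehicle tumours. The 24 h arrays overlapped the vehicle arrays, and the 48 h arrays did not. The difference was 0.19 ± 0.15 at 24 h (adjusted p = 0.368) and 0.56 ± 0.15 at 48 h (adjusted p = 0.00432). With the 4 h vehicle arrays as control, Map1b was not called at 48 h (adjusted p = 0.113). Of its 3 probe sets, 2 were called.

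The stathmins differed in their timing. Stmn2 (SCG10), which regulates microtubule turnover in growing axons and in axon regrowth, had 111, 114 and 129 at 24 h and 1441, 1439.6 and 1468 at 48 h, against 33.2, 36.5 and 2.00 in vehicle tumours. The vehicle arrays lay near the bottom of the measured range, the 24 h arrays lay above them, and the 48 h arrays lay far above both. The rise was 1.89 ± 0.32 at 24 h (adjusted p = 7.08e-05) and 5.35 ± 0.32 at 48 h (adjusted p = 5.55e-12), or 40.8-fold on the signal + 16 scale. Its other probe set, 1423280_at, averaged 117 at 24 h and 1358 at 48 h, against 6.90 in vehicle tumours. Stmn3 (SCLIP), a neuronal stathmin that promotes process growth, had 1935, 2212 and 2036 at 24 h and 2777, 2974 and 2604 at 48 h, against 511, 574 and 436 in vehicle tumours. Here the 24 h arrays already stood close to the 48 h arrays. Its rise was 2.00 ± 0.27 at 24 h (adjusted p = 3.04e-06) and 2.43 ± 0.27 at 48 h (adjusted p = 8.01e-08). The main Stmn3 probe set has a name ending in x_at, which marks probes shared with other transcripts; the other, 1460181_at, rose alike, with a mean of 925 at 48 h, against 185 in vehicle tumours.

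Gap43, a protein kinase C substrate of the growth cone membrane, had 571, 632 and 737 at 24 h and 1968, 1942 and 1838 at 48 h, against 86.0, 111 and 62.3 in vehicle tumours. The 3 groups were separated from one another with no overlap. The rise was 2.71 ± 0.32 at 24 h (adjusted p = 5.68e-07) and 4.27 ± 0.32 at 48 h (adjusted p = 2.28e-10), or 19.2-fold at 48 h on the signal + 16 scale.

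The genes were called at different times. Comparing 48 h with 24 h of drug, 3 of the 10 were called higher and 0 lower, beside 11.9% of all genes called higher. These were Stmn2 (3.46 ± 0.32, adjusted p = 7.53e-08), Gap43 (1.55 ± 0.32, adjusted p = 0.00115) and Mapt (1.36 ± 0.32, adjusted p = 0.00325). As a share of its own 48 h mean, the 24 h mean of the main probe set was 8.12% for Stmn2, 33.7% for Gap43 and 34.5% for Mapt. The same share was 57.4% for Dcx, 67.3% for Tubb3, 74.0% for Stmn3, 74.9% for Tubb2b, 77.1% for Map1b and 103% for Map2. Map2 was not called between these times on its main probe set (-0.04 ± 0.24, 95% interval -0.54 to 0.45). Dcx was not called between 24 h and 48 h on its main probe set (0.79 ± 0.48, adjusted p = 0.271), although its arrays did not overlap. Fitted on those 6 arrays alone it was called, and 7 genes were called in that fit, beside 27.7% of all genes in either direction. The other Dcx probe sets rose between these times without overlap. Their means at 24 h and 48 h were 660.5 and 1486 for 1418139_at, 19.6 and 82.1 for 1418140_at, and 31.6 and 112 for 1448974_at.

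Comparing 24 h with 8 h of drug, 4 genes were called higher, beside 8.28% of all genes: Dcx (1.84 ± 0.48, adjusted p = 0.0106), Stmn2 (1.65 ± 0.32, adjusted p = 9.04e-04), Gap43 (1.46 ± 0.32, adjusted p = 0.00306) and Stmn3 (0.87 ± 0.27, adjusted p = 0.0295). Sample identifiers fall into 3 runs of numbers, and only 1 of the 24 h arrays shares a run with the 8 h arrays. With that run as a block 0 of these calls held, with log2 differences of 1.82 for Dcx (adjusted p = 0.153), 1.58 for Stmn2 (adjusted p = 0.0566), 1.29 for Gap43 (adjusted p = 0.129) and 0.78 for Stmn3 (adjusted p = 0.284). Leaving out any 1 of the 6 arrays also ended the Stmn3 call (adjusted p between 0.0612 and 0.0951). Within the shared run the sign was the same for 10 of 10 genes. These arrays are also part of the full comparison, so the agreement is in part built in and gives no separate support. For the genes not called, the within-run difference was 0.54 for Tubb3 and -0.31 for Dclk1. It was only 0.052 for Map2, -0.041 for Map1b, 0.014 for Mapt and 0.0005 for Tubb2b.

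**Figure D4:**
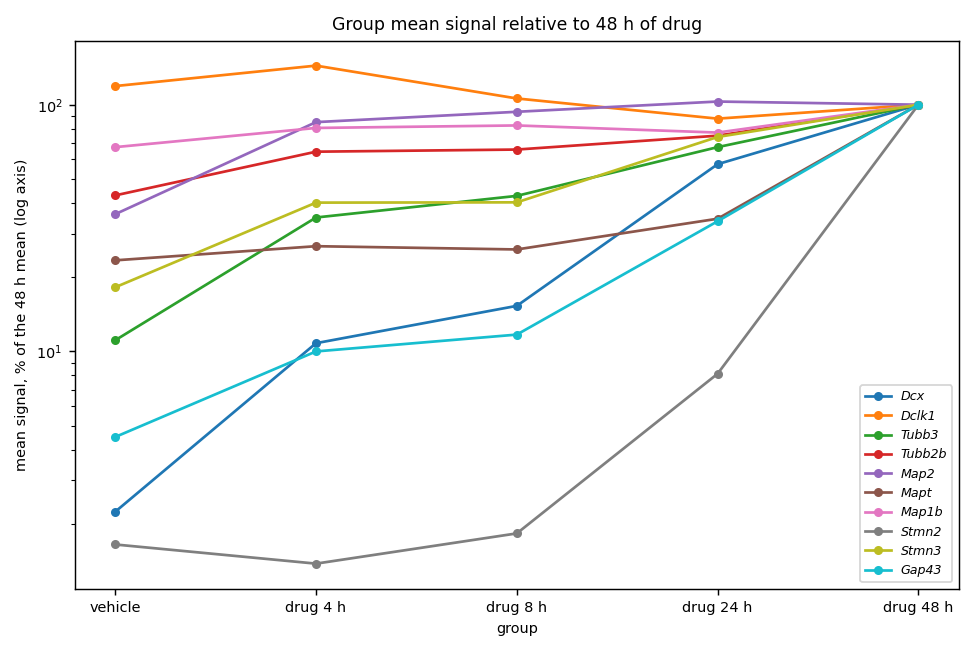
Mean signal of each gene's main probe set as a percent of its own 48 h mean (log axis), for vehicle with no stated time and 4, 8, 24 and 48 h of drug (3 arrays a group, means only). Stmn2 stays near the vehicle level until 8 h and is at 8.12% at 24 h. Map2 is already at 103% at 24 h, and Dclk1 lies above 100% in vehicle. The 4 h vehicle group is not drawn, so the step from vehicle to 4 h of drug also spans the difference between the vehicle groups. Dcx was at 2.24% in vehicle, 9.0% in 4 h vehicle and 10.8% at 4 h of drug. Map2 was at 36.0%, 66.6% and 85.0% in the same groups.

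At 4 h none of the 10 genes was called against the 4 h vehicle arrays, beside 0.348% of all genes called in either direction. An unadjusted p below 0.05 was reached by 1 of them, beside 1092 of all 14945 genes. This was Tubb3, with 359.8, 290.0 and 306 at 4 h, against 193 and 188 in 4 h vehicle tumours (adjusted p = 0.691). At 8 h the count was again 0, beside 4.61% of all genes in either direction. Here 2 genes lay under an unadjusted 0.05, beside 2537 of all 14945 genes. Tubb3 had 362, 393 and 414 at 8 h (0.97 ± 0.30, adjusted p = 0.0855), and Dclk1 had 536, 362 and 606 at 8 h, against 786 and 575 in 4 h vehicle tumours (-0.45 ± 0.18, adjusted p = 0.223). Dcx had 241, 245 and 252 at 8 h, against 136 and 154 in 4 h vehicle tumours. These Dcx groups did not overlap, and the difference of 0.71 ± 0.53 was not called (adjusted p = 0.636). By then Gli1 had already fallen, by -4.62 ± 0.35 in log2 units as drug minus vehicle (adjusted p = 1.71e-08). Stmn2 had 24.9, 31.1 and 23.6 at 8 h, against 22.7 and 20.0 in 4 h vehicle tumours, and was near its lower limit in both.

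The early result depended on the vehicle group. Between the 4 h vehicle and vehicle arrays 0 genes were called, beside 0.201% of all genes in either direction. An unadjusted p below 0.05 (limma) was found for 5 of the 10, beside 1311 of all 14945 genes. Yet the vehicle groups did not overlap for Dcx, Map2 and Stmn3, among others. How often groups of this size separate over all genes was not counted. Dcx had 136 and 154 in 4 h vehicle tumours, against 38.5, 44.1 and 25.6 in vehicle tumours (1.64 ± 0.53, adjusted p = 0.373). Map2 had 1009.5 and 744, against 474, 505 and 443, and Stmn3 had 968 and 1014, against 511, 574 and 436, in 4 h vehicle and vehicle tumours. The 4 h vehicle arrays belong to other identifier runs than the vehicle arrays, so run and time cannot be told apart. Set against vehicle with no stated time, 4 of the 10 genes were called at 4 h, beside 2.70% of all genes in either direction, and 5 at 8 h, beside 8.87%.

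In resistant tumours at 40 mg/kg none of the 10 genes was called against vehicle (limma), beside 9.85% of all genes called in either direction. An unadjusted p below 0.05 was found for 3, beside 3599 of all 14945 genes. The 95% interval of the log2 difference was -0.80 to 1.18 for Dcx, -0.38 to 0.95 for Stmn2 and 0.02 to 1.35 for Gap43. Without replicate 2 of this group Tubb3 was called (0.96, adjusted p = 0.0304), and without replicate 3 Stmn3 (1.03, adjusted p = 0.0119) and Gap43 (1.16, adjusted p = 0.0141) were. Compared instead with 48 h of the same dose, 8 of the 10 were called lower and 0 higher, beside 19.3% of all genes called lower and 17.8% called higher. The median log2 difference was -1.74, beside -0.0424 over all genes. Stmn2 had 42.0, 23.1 and 21.2 in resistant tumours at 40 mg/kg, against 1441, 1439.6 and 1468 at 48 h (-5.06 ± 0.32, adjusted p = 2.89e-11). Dcx had 155, 52.4 and 1.20, against 1625, 1597 and 1606 at 48 h (-4.79 ± 0.48, adjusted p = 4.53e-08). By size of fall Stmn2 ranked 3 and Dcx 5 of all 14945 genes, or 8 and 4 with an offset of 1.

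Gap43 had 332, 128 and 67.6 in resistant tumours at 40 mg/kg, against 1968, 1942 and 1838 at 48 h (-3.58 ± 0.32, adjusted p = 9.57e-09). Map2 lay below all 3 vehicle arrays on 2 of the 3 resistant arrays, with 424, 622 and 209 in resistant tumours at 40 mg/kg, against 474, 505 and 443 in vehicle tumours, and was not called against them (-0.30 ± 0.24, adjusted p = 0.558). The other genes called lower than at 48 h were Tubb3 (-2.37 ± 0.27), Stmn3 (-1.75 ± 0.27), Map2 (-1.74 ± 0.24), Mapt (-1.62 ± 0.32) and Tubb2b (-0.95 ± 0.23). Map1b (-0.33 ± 0.15, adjusted p = 0.0984) and Dclk1 (0.12 ± 0.16, adjusted p = 0.635) were not called, although Map1b was without replicate 1 of the resistant group (-0.45, adjusted p = 0.0354).

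The 3 arrays of this group were unequal. The array of replicate 1 was the highest of the group for 8 of the 10 genes. Stmn3 had 1766, 619 and 493 on replicates 1, 2 and 3, Tubb3 had 378, 93.9 and 117, and Mapt had 125, 36.2 and 36.8. On the same arrays Neurod1, a factor of differentiating granule neurons, was at 2393, 776 and 1591, and the actin ratio was at 1.46, 0.885 and 0.914. The summed signal of 12 skeletal muscle markers was 5967, 367 and 427. The part of these differences in the result was not tested.

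In resistant tumours at 160 mg/kg 3 genes were called higher than in vehicle tumours and 0 lower, beside 1.19% of all genes called higher. Stmn3 had 1554, 1041 and 1688 at 160 mg/kg, against 511, 574 and 436 in vehicle tumours (1.44 ± 0.27, adjusted p = 0.00825). Tubb3 had 339, 219.8 and 259, against 109.6, 105 and 90.9 in vehicle tumours (1.28 ± 0.27, adjusted p = 0.0195). Dclk1 had 1141, 771 and 813, against 549, 529 and 599 in vehicle tumours (0.66 ± 0.16, adjusted p = 0.0414). In all 3 the groups did not overlap. Against the 4 h vehicle arrays 0 of the 10 genes were called, and without replicate 3 of the 160 mg/kg group none of the 3 was called (adjusted p = 0.0759 for Stmn3, 0.0972 for Tubb3 and 0.106 for Dclk1). Without any 1 of the vehicle arrays Stmn3 alone was called. Without replicate 1 of the 160 mg/kg group Dcx was called and Dclk1 was not, and without replicate 2 Gap43 was called as well. Dcx, with 64.7, 119 and 287 at 160 mg/kg, against 38.5, 44.1 and 25.6 in vehicle tumours, was not called (1.53 ± 0.48, adjusted p = 0.134). The arrays of the 160 mg/kg group were unequal too: replicate 1 was the highest of the group for 6 of the 10 genes and replicate 3 for 4. Macrophage markers had 5 of 9 called higher at 160 mg/kg, with sums of 2750, 6415 and 10560 on replicates 1, 2 and 3, against between 1492 and 2508 in vehicle tumours, and the 1 erythroid marker was called higher. Glial markers, with 0 of 6 called, summed to 2621, 1264 and 959 on the same arrays, against between 1231 and 1605 in vehicle tumours. On average S100b made up most of these sums, with a mean of 1280 at 160 mg/kg, against 1230 in vehicle tumours. At 40 mg/kg macrophage markers had 9 of 9 higher than in vehicle tumours. The part of these cells in the resistant results was not tested.

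Between the resistant groups, 1 gene was called higher at 160 mg/kg, beside 1.68% of all genes. This was Dclk1, with 1141, 771 and 813 at 160 mg/kg, against 526, 489 and 520.3 at 40 mg/kg (0.79 ± 0.16, adjusted p = 0.00625). The groups did not overlap, and probe set 1424271_at was called as well (0.59 ± 0.15, adjusted p = 0.0393). Without replicate 1 of the 40 mg/kg group 5 genes were called, adding Dcx, Tubb3, Stmn3 and Gap43, beside 2.64% of all genes called higher. Fitted on these 6 arrays alone 0 were called (limma), beside 0.0669% of all genes in either direction.

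Partner genes of the same machinery, 73 in 7 lists, were read for context; 70 had a probe set and 65 were tested. At 48 h 35 were called higher and 10 lower than in vehicle tumours, beside 25.2% of all genes higher and 21.3% lower. At 24 h 30 were higher, beside 19.7% of all genes, and 8 lower, beside 14.4%. The median log2 difference of the 65 at 48 h was 0.411, beside 0.056 over all genes. In resistant tumours at 40 mg/kg 5 were called higher and 6 lower than in vehicle tumours, beside 5.39% of all genes higher and 4.46% lower. At 160 mg/kg 3 were higher and 0 lower, beside 1.19% of all genes higher and 0.254% lower. Compared with 48 h, resistant tumours at 40 mg/kg had 27 partners lower and 9 higher, beside 19.3% and 17.8% of all genes, with the largest falls in Stmn4 (-3.45 ± 0.55) and Tubb4a (-3.03 ± 0.34) and the largest rises in Dpysl4 (3.74 ± 0.17) and Fignl1 (1.71 ± 0.17). Between 24 h and 8 h of drug 12 were higher, beside 8.28% of all genes, led by Kif5a (1.59 ± 0.30) and Ina (1.38 ± 0.36), and 8 lower, beside 8.62%, led by Tubb4b (-2.29 ± 0.16) and Fignl1 (-1.39 ± 0.17). At 8 h 1 rose and 2 fell, beside 2.12% of all genes higher and 2.49% lower, and at 4 h 0 were called (limma), as between the vehicle groups.

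The tubulins moved in opposite directions, with 3 of 9 higher and 3 lower at 48 h, counts near the 25.2% of all genes called higher and 21.3% called lower. Tubb4a, a beta-tubulin of mature nervous tissue, had a mean of 455 ± 19.6 at 48 h, against 37.1 ± 0.833 in vehicle tumours (SD, n = 3 each; 3.15 ± 0.34, adjusted p = 7.88e-08). Tubb2a (1.73 ± 0.16) and Tuba4a (1.12 ± 0.35) rose too. The broadly expressed Tubb4b fell (-1.68 ± 0.16, adjusted p = 1.39e-08), as did Tubb5 (-0.39 ± 0.10, adjusted p = 0.00226) and Tubg1, the gamma-tubulin of centrosomes (-1.12 ± 0.15, adjusted p = 1.47e-06). Tuba1a, the main alpha-tubulin of developing neurons, was not called (0.26 ± 0.11, adjusted p = 0.0692).

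Of 15 stathmin and microtubule-associated protein partners, 9 were called higher at 48 h and 0 lower, beside 25.2% and 21.3% of all genes. Stmn4, the fourth stathmin, had a mean of 631 ± 46.7 at 48 h, against 24.5 ± 23.1 in vehicle tumours (SD, n = 3 each; 4.14 ± 0.55, adjusted p = 1.47e-06). Like Stmn2, it rose again between 24 h and 48 h (1.91 ± 0.55, adjusted p = 0.0149). Stmn1, the stathmin of dividing cells, was lower at 24 h (-0.60 ± 0.12, adjusted p = 5.08e-04) and not called at 48 h (-0.08 ± 0.12, adjusted p = 0.658). So within the family Stmn2, Stmn3 and Stmn4 rose at 48 h while Stmn1 had a mean of 6855 ± 367 at 48 h, against 7251 ± 435 in vehicle tumours.

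Among 14 growth cone partners 10 were higher and 2 lower at 48 h, beside the same shares of all genes. The collapsin response mediators, which link guidance signals to microtubules, diverged: Dpysl3 rose (2.99 ± 0.21, adjusted p = 5.48e-11), Dpysl2 was not called (0.02 ± 0.10, adjusted p = 0.885), and Dpysl4 fell to a mean of 76.5 ± 8.11 at 48 h, against 1186 ± 154 in vehicle tumours (SD, n = 3 each; -3.69 ± 0.17, adjusted p = 5.85e-14). In resistant tumours at 40 mg/kg Dpysl4 was at 1219 ± 141 (SD, n = 3). Dpysl5 rose late, with 1.28 ± 0.28 between 24 h and 48 h (adjusted p = 0.00175), and Mark3, a kinase that phosphorylates microtubule-associated proteins, fell in the same interval (-0.59 ± 0.11, adjusted p = 4.85e-04). Fez1, an axonal adaptor, was already lower at 8 h (-0.74 ± 0.18, adjusted p = 0.0195), and Map7 was higher (0.88 ± 0.24, adjusted p = 0.0469).

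Of the remaining lists at 48 h, motors had 7 of 12 higher and 2 lower, kinases and the LIS1 complex had 5 of 10 higher and 2 lower, neurofilaments 1 of 2 higher, and severing enzymes 1 of 3 lower, beside 25.2% of all genes higher and 21.3% lower; lists of 2 or 3 genes cannot be read against these shares. Ina, the neurofilament of early neurons, averaged 981 ± 51.8 at 48 h, against 60.3 ± 4.75 in vehicle tumours (SD, n = 3 each; 3.71 ± 0.36, adjusted p = 1.12e-08). Ina was also called higher in resistant tumours at 40 mg/kg (1.66 ± 0.36, adjusted p = 0.00491) and at 160 mg/kg (2.10 ± 0.36, adjusted p = 0.0051). Its mean was 314 ± 321 at 40 mg/kg, where the arrays were very unequal, and 315 ± 66.4 at 160 mg/kg (SD, n = 3 each). The neuronal kinesin Kif5a was among the largest partner rises at 24 h (2.39 ± 0.30, adjusted p = 1.71e-06). Fignl1, a relative of the microtubule-severing ATPases, fell at 8 h (-0.92 ± 0.19, adjusted p = 0.00517), at 24 h (-2.14 ± 0.17, adjusted p = 8.67e-10) and at 48 h (-2.52 ± 0.17, adjusted p = 3.75e-11). In resistant tumours at 40 mg/kg, Mark1 rose (1.52 ± 0.41, adjusted p = 0.0224) and the kinesin Kif21a fell (-0.99 ± 0.29, adjusted p = 0.0393). Arrays were unequal for Kif21a at 40 mg/kg (374 ± 304) and for Mark1 in vehicle tumours (28.5 ± 38.7, SD, n = 3 each). The actin-binding Dbn1 rose at 160 mg/kg (0.72 ± 0.16, adjusted p = 0.0322). Between the resistant doses, Crmp1 (1.43 ± 0.36) and Dclk2, the closest relative of Dclk1 (0.94 ± 0.17, adjusted p = 0.0033), were higher at 160 mg/kg. Kif21b (-1.02 ± 0.15) and Shtn1 (-0.75 ± 0.19) were lower. Crmp1 averaged 373 ± 374 at 40 mg/kg (SD, n = 3), so those arrays were very unequal too.

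**Figure D5:**
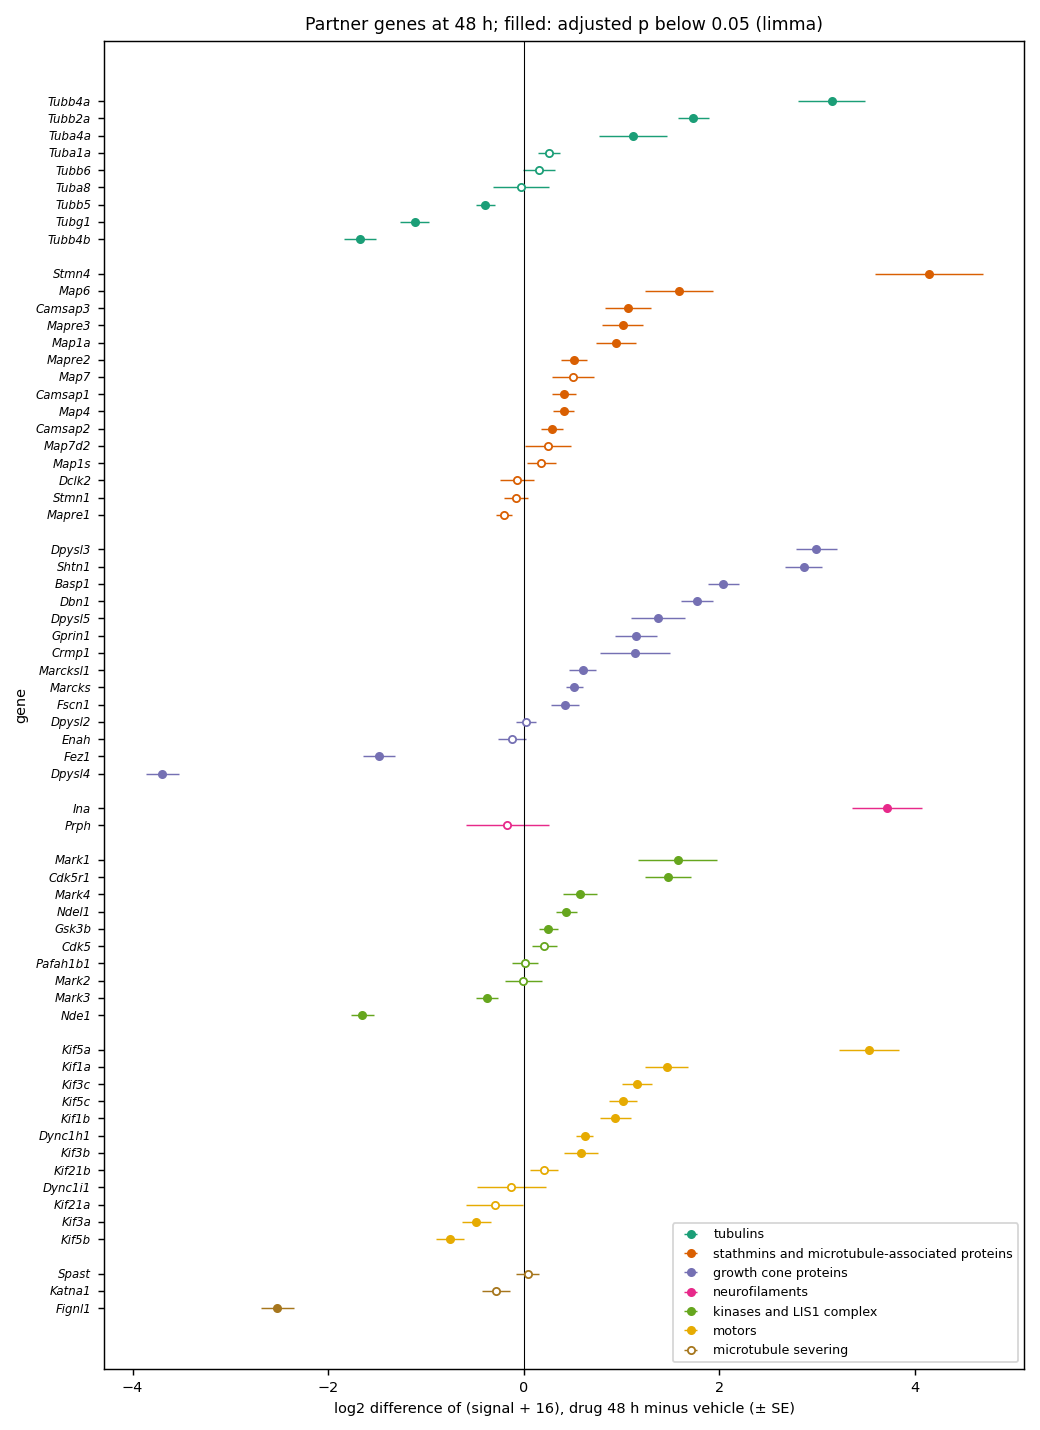
Log2 difference of (signal + 16), 48 h of drug minus vehicle, with SE (lines), for the 65 tested partner genes grouped by list; filled points have an adjusted p below 0.05. Stmn4, Ina and Kif5a lie farthest to the right and Dpysl4 farthest to the left, and tubulins lie on both sides of 0.

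The 10 genes varied in how alike they were. Over the 8 group means, Dcx was most like Tubb3 (Pearson r = 0.969, and 0.925 over the 23 arrays) and Stmn2 most like Gap43 (0.947, and 0.924 over arrays). For other pairs r was lower over the arrays: Mapt and Stmn2 had 0.933 over the group means and 0.774 over the arrays, Tubb2b and Stmn3 had 0.979 and 0.748, and Map2 and Dcx had 0.861 and 0.787. For Dclk1 the highest r with any other was -0.155. Over all genes tested, those most like Dcx over the 8 group means were Cntn2, an axonal adhesion protein (r = 0.998), Tubb4a (0.993), the semaphorin receptor Plxna3 (0.992), the junctional protein Jph4 (0.990) and the neuronal splicing factor Nova1 (0.990). Cntn2 averaged 1553 at 48 h and 75.8 in resistant tumours at 40 mg/kg, against 40.0 in vehicle tumours. These correlations describe the same 23 arrays, over which r lay between 0.931 and 0.990 for the 5 genes.

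Markers of other cells moved with the same groups. Macrophage markers summed to between 24840 and 33410 at 48 h, against between 1492 and 2508 in vehicle tumours, with 9 of 9 called higher. Fibroblast and matrix markers summed to between 31880 and 44860 at 48 h, against between 2994 and 7903 in vehicle tumours, with 7 of 8 higher. Endothelial markers had 7 of 7 higher at 48 h, with sums between 1328 and 2107, against between 383.9 and 624.9 in vehicle tumours. Skeletal muscle markers had 10 of 12 higher at 24 h and 0 at 48 h, with sums between 12130 and 17210 at 24 h, against between 1016 and 13090 in vehicle tumours. At 24 h fibroblast and matrix markers had 7 of 8 higher and 1 lower, with sums between 16990 and 23230 at 24 h, against between 2994 and 7903 in vehicle tumours. Macrophage markers had 5 of 9 higher at 24 h, with sums between 3203 and 5326, against between 1492 and 2508 in vehicle tumours, and endothelial markers had 3 of 7 higher. No marker of these lists was at 0. The part of these cells in the result was not tested. For host nerve, 5 markers of peripheral sensory and autonomic neurons had a probe set, of which 3 were tested. These 5 summed to between 59.4 and 79.9 at 48 h, against between 55.2 and 100.2 in vehicle tumours, with 0 of 3 called (limma), and Isl1 and Scn10a were below the filter.

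Markers of the granule neuron lineage, the tissue the label names, were present in every group. The 8 summed to between 17370 and 20110 at 48 h, against between 10140 and 11620 in vehicle tumours. Of these, 4 were called higher and 2 lower, beside 25.2% and 21.3% of all genes. The markers moved in both directions. Zic1 averaged 7830 at 48 h, against 4390 in vehicle tumours, while Atoh1 averaged 1530, against 4100. Mki67, a marker of dividing cells, averaged 346 ± 36.5 at 24 h and 573 ± 138 at 48 h, against 4810.0 ± 66.7 in vehicle tumours (SD, n = 3 each). Neurod1 averaged 3214 ± 457 at 24 h and 6435 ± 204 at 48 h, against 305 ± 27.7 in vehicle tumours (SD, n = 3 each). In resistant tumours at 40 mg/kg Neurod1 was called higher than in vehicle tumours, at 1587 ± 809 (2.18 ± 0.28, adjusted p = 4.09e-05). None of the 10 young-neuron genes was called there. Of the 8 lineage markers only Neurod1 was called higher at this dose and 1 was called lower, with a median log2 difference of -0.0975. At 160 mg/kg Neurod1 was called higher than in vehicle tumours as well, at 967 ± 522 (limma, adjusted p = 0.0105). There 3 of the 10 young-neuron genes were called higher.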

How the data were processed

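The data are 1 signal intensity per probe set, for 45101 probe sets on 23 arrays, made by the authors with MAS5, per the submitters' processing notes; the version is not given in the sources used here. Groups follow the description label. Probe sets were named from the platform annotation supplied with the series: 34945 carry 1 symbol, 932 several and 9224 none (64 controls were left out). Gene coordinates and start windows came from RefSeq, GRCm38.p6. Probe sets above the array's 40th percentile (between 18.7 and 28.6) on at least 2 arrays were tested. Log2(signal + 16) was fitted with limma 3.58.1 in R 4.3.3, with 8 group means in 1 model (15 residual and 8.5 prior degrees of freedom, eBayes with trend). Two-sided p-values were adjusted by Benjamini-Hochberg within each of 11 comparisons. The fit was tested on simulated data.

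The 10 genes, the partner and marker lists and the comparisons were chosen with earlier results of these data known. Partners named are the 2 called with the largest rise and the 2 with the largest fall in each comparison, and Stmn1, Tuba1a and Tubb5. Tubb2a, Tuba4a, Tubb4a, Tubb4b, Tubg1, Dpysl2, Dpysl3 and, in other comparisons than those their rank chose, some of the same partners were named after their values were seen. Gli1, Mki67 and Neurod1 were read as context. Alternatives were offsets of 1 and 64, other filters, quantile normalization, no trend, only the compared arrays, any probe set of a gene, other vehicle arrays, blocks for replicate number or identifier run, and fits without 1 array at a time. Some genes are not reported here.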

Additional observations from a re-analysis of the deposited data

Results flagged for a closer look

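Both drug times were set against the same 3 vehicle arrays, and for 3 genes the effect at 48 h differed from that at 24 h in limma's test of the difference. It was larger at 48 h by 3.46 in log2 units for Stmn2 (adjusted p = 7.53e-08), by 1.55 for Gap43 (adjusted p = 0.00115) and by 1.36 for Mapt (adjusted p = 0.00325). The arrays of the 2 times did not overlap for any of the 3 genes. The actin ratio also differed, between 0.843 and 0.964 at 48 h, against between 1.41 and 1.83 at 24 h, and the part of this in the result was not tested. The effect of resistance on Dclk1 was larger at 160 mg/kg than at 40 mg/kg by 0.79 in log2 units (adjusted p = 0.00625), again with the same vehicle arrays as control. Dixon's test for an outlying array was not applied to groups of 2 or 3 arrays.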

How the results depend on the processing

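The counts of called genes at 24 h, at 48 h and in resistant tumours at 40 mg/kg against 48 h stayed within 1.5 times under every alternative run. Percentages in brackets below are the share of all genes called in either direction under the same setting. Leaving out each array in turn gave 7 called at 24 h in every case (Dclk1 lost; 28.4% to 29.5%) and 9 at 48 h (41.1% to 43.3%). It gave 3 between 24 h and 8 h (11.5% to 12.9%) and 3 between 48 h and 24 h (17.4% to 23.9%). Between resistant tumours and 48 h it gave 8 to 9 (30.8% to 35.8%). Against vehicle it gave 0 to 2 for 40 mg/kg (5.97% to 10.6%) and 0 to 4 for 160 mg/kg (0.207% to 4.02%). Between the resistant groups it gave 1 to 5 (2.09% to 4.26%). With the other vehicle group as control 4 genes were called at 4 h (2.70%) and 5 at 8 h (8.87%). The same control gave 1 (Map2, lower) at 40 mg/kg (10.5%) and 0 at 160 mg/kg (1.26%). With all 5 vehicle arrays 2 were called at 4 h (1.76%) and 4 at 8 h (9.52%). Fitting only the arrays compared gave 3 at 8 h (6.78%), 7 between 48 h and 24 h (27.7%) and 1 at 160 mg/kg (0.0201%). It gave 0 between the resistant groups (0.0669%) and 3 between the vehicle groups (0.562%). Counting any probe set gave 1 at 8 h and 6 between 48 h and 24 h, and all genes were not counted in this way. Without the trend 1 gene was called at 160 mg/kg (0.482%), and with the identifier run as a block 0 between 24 h and 8 h (6.37%). For single genes, 1654 of 1740 repeats kept their call, 47 lost it, 39 gained one and 0 called values changed sign; 53 uncalled values did. Without any filter the Dclk1 call at 160 mg/kg was lost (adjusted p = 0.0567). Same-numbered arrays did not deviate together (r between -0.104 and 0.0774), and with the replicate number as a block the pairing changed no count: 8 at 24 h, 9 at 48 h and 8 in resistant tumours at 40 mg/kg against 48 h. The cause of these shifts was not tested. The small number of arrays limits precision, and dim genes such as Stmn2 in vehicle tumours lie at the bottom of the measured range.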
